A study of Mus musculus with 10 samples.

Results

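The FEM1 genes Fem1a, Fem1b and Fem1c encode substrate receptors of a cullin-2 ubiquitin ligase. All 3 are mouse genes with N6-methyladenosine (m6A) peaks in the WT list and none in the KO list, and they are 3 of the 8516 genes with a peak in either list. They were picked by gene symbol with their peak counts already known, since Fem1a stood out for its many WT peaks, so the counts below are a description and carry no test. The family held 20 of the 15009 WT peaks.

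The data came from m6A-seq of polyadenylated RNA of cortex and hippocampus at postnatal day 5. An antibody against m6A enriches RNA fragments, and regions richer in the immunoprecipitate (IP) than in unselected input RNA are listed as peaks. The KO group carried a Mettl14 knockout driven by Nestin-Cre (2 IP and 2 input libraries), and the WT group is labelled WT with no further allele named (3 IP and 3 input libraries). METTL14 forms the m6A writer complex with METTL3. Nestin-Cre acts in the neuroepithelial lineage, so vessel cells and microglia of the KO tissue would keep the gene. The labels also give a serum-free culture medium, and whether tissue or cultured cells were lysed is not settled by them. The labels give no strain, sex or pooling of animals.

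The deposited values were a consensus peak list for each genotype, with a position, a strand, a gene symbol, exonic blocks and a score per peak. The scores lay between 0 and 0.00015 and were read as p-values or q-values, so a smaller score marks a stronger peak. No list holds values per library, so no spread between replicates could be given, and sequencing depth is unknown. The lists hold no expression level, and a missing peak or a weaker score cannot be told apart from fewer transcripts of the gene. The KO list came from fewer libraries than the WT list and is shorter (3673 against 15009 peaks), and genotype and number of libraries cannot be told apart.

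FEM1 proteins are built on ankyrin repeats, which bind the end of a target protein, and they connect to cullin-2 through elongins B and C. The family is named after fem-1, a sex-determination gene of Caenorhabditis elegans. Mammalian FEM1 proteins are known for reading degrons at the carboxyl terminus of their substrates, among them proteins that end in arginine. FEM1B is known for the turnover of FNIP1 when cells are under reductive stress and of the Hedgehog effector GLI1, and FEM1A also binds a prostaglandin E receptor.

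Fem1a had no KO peak and 12 WT peaks. It lies on the plus strand of chromosome 17 from 56256793 to 56263608 (GRCm38, counted from 1), a span of 6816 bases. The 12 peaks covered 2464 exonic bases, which is 36.2% of that span, and ran from 56256942 to 56263100. Each peak was a single block. Widths went from 61 to 659 bases with a median of 165.5, against a median of 208 bases in the whole WT list.

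The Fem1a peaks formed an upstream run of 7 and a downstream run of 5, parted by 1613 bases without a peak. The upstream run lay between 56256942 and 56259842 and held 1740 of the exonic peak bases (70.6%). The downstream run lay between 56261456 and 56263100 and held 724. Exon borders were not used here, so whether an intron lies in between was not examined.

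The strongest Fem1a peaks were a neighbouring pair at the end of the upstream run. The widest peak, of 659 bases, began 2391 bases after the gene start (56259184 to 56259842) and had the lowest Fem1a score, 1e-221. The peak just before it, of 299 bases (56258557 to 56258855), had a score of 1e-171. These 2 were stronger than 90.8% and 86.7% of all WT peaks and held 38.9% of the Fem1a peak length.

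The other 10 Fem1a peaks were of middling or low strength. Their -log10 scores ranged from 6.5 to 43.6, and none was stronger than 52.0% of the WT list. The first of them starts 149 bases after the gene start (56256942 to 56257032). Its score of 2.9e-07 was the weakest in the family, and only 2.64% of WT peaks were weaker. The next 4 upstream peaks had -log10 scores of 17.3, 21.2, 22.7 and 29.3, each a little stronger than the one before it toward the strong pair.

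Of the 5 downstream peaks, the last lay 508 bases before the gene end (56262950 to 56263100) and had the lowest score, 2.5e-44. A peak of 61 bases from 56261605 to 56261665 had 2e-43, close to it. The widest of this run, 330 bases from 56262323 to 56262652, had a score of only 7.9e-24. The widest downstream peak was thus not the strongest.

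**Figure D1:**
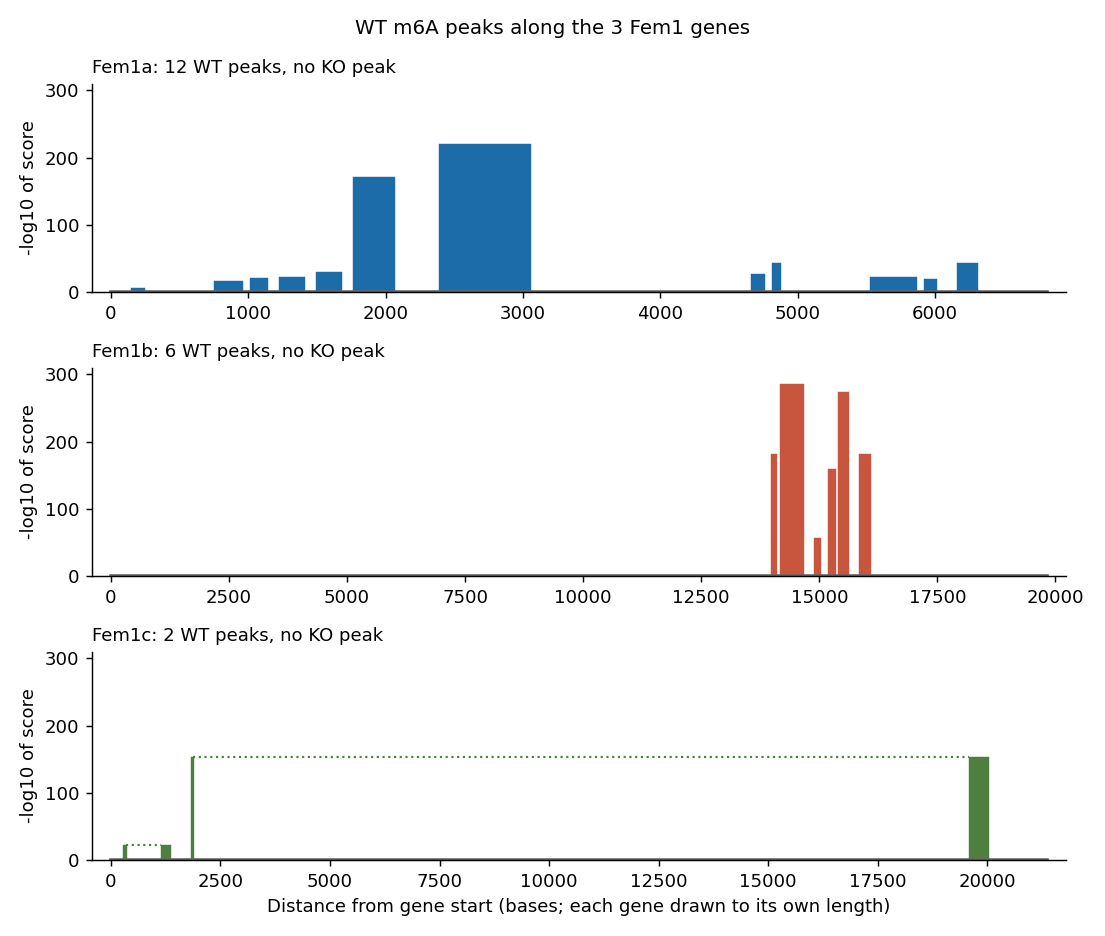
WT peaks of Fem1a, Fem1b and Fem1c drawn from the gene start (x axis, bases, each gene to its own length) with the -log10 of the deposited score as height. Dotted lines join the exonic blocks of a peak. Fem1a carries 12 peaks over most of its span with a strong pair in the middle, Fem1b carries 6 in a single cluster, and Fem1c carries 2 peaks of 2 blocks each.

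Several Fem1a peaks were separated by short gaps. Of the 11 gaps between neighbouring peaks, 6 were at most 100 bases (58 to 89 bases). In Fem1b, 2 of 5 gaps were that short. Over all genes, 541 of 5099 gaps between neighbouring single-block WT peaks were that short (10.6%), in genomic bases with introns included. Most single-block peaks had a width within 1 base of a multiple of 30 (91.3% of 11441 WT entries), so the borders move in steps of 30 bases and these gaps span few steps. Joined across gaps of up to 100 bases, the 12 peaks became 6, the 6 peaks of Fem1b became 4, and Fem1c kept 2.

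Fem1b had no KO peak and 6 WT peaks. The gene lies on the minus strand of chromosome 9 from 62791824 to 62811648, a span of 19825 bases. All 6 peaks were single blocks and lay between 62795568 and 62797661, an interval of 2094 bases that makes up 10.6% of the span. Peaks covered 61.8% of that interval, or 1294 bases. In transcript direction they started 13987 bases after the gene start and stopped 3744 bases short of the gene end, so none reached either end of the gene.

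Fem1b peaks were stronger than most in the WT list. From the upstream end, the -log10 scores were 181.0, 285.0, 56.3, 160.0, 274.0 and 182.0. The strongest, of 480 bases (62797003 to 62797482), had a score of 1e-285 and was stronger than 93.9% of WT peaks. A peak of 211 bases (62796046 to 62796256) followed with 1e-274. The weakest, of 121 bases (62796644 to 62796764), lay between stronger ones and had a score of 5e-57, still lower than that of 59.4% of WT peaks. In Fem1b, 5 of 6 peaks fell in the strongest 20% of the WT list, against 2 of 12 in Fem1a and 1 of 2 in Fem1c.

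Fem1c had no KO peak and 2 WT peaks. It lies on the minus strand of chromosome 18 from 46504606 to 46525971, a span of 21366 bases, and its peaks covered 777 exonic bases. Both peaks were listed as 2 exonic blocks. The stronger, of 478 exonic bases and a score of 1e-153, joined a block of 37 bases (46524102 to 46524138) to a block of 441 bases (46505949 to 46506389) across 17712 bases, and its larger block stopped 1343 bases before the gene end. The weaker, of 299 exonic bases and a score of 1e-23, joined blocks of 85 bases (46525618 to 46525702) and 214 bases (46524616 to 46524829) and began 269 bases after the gene start. Peaks of more than 1 block made up 23.5% of the WT list, and Fem1a and Fem1b had none.

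The order of the paralogs depended on whether number or strength was read. By number of WT peaks the order was Fem1a, Fem1b, Fem1c, with 12, 6 and 2. By median -log10 score it was Fem1b, Fem1c, Fem1a, with 181.5, 88.0 and 25.2, and the whole WT list had a median of 41.0. The Fem1c median rests on 2 peaks, at 153.0 and 23.0, and the lower lies below the Fem1a median. Strength here is the deposited score and is not a measure of methylation per transcript. The scores of Fem1a and Fem1b overlapped, since the strong Fem1a pair lay within the Fem1b range and the other Fem1a peaks lay below it. No test was made, because the peaks of a gene share its transcripts and its libraries.

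**Figure D2:**
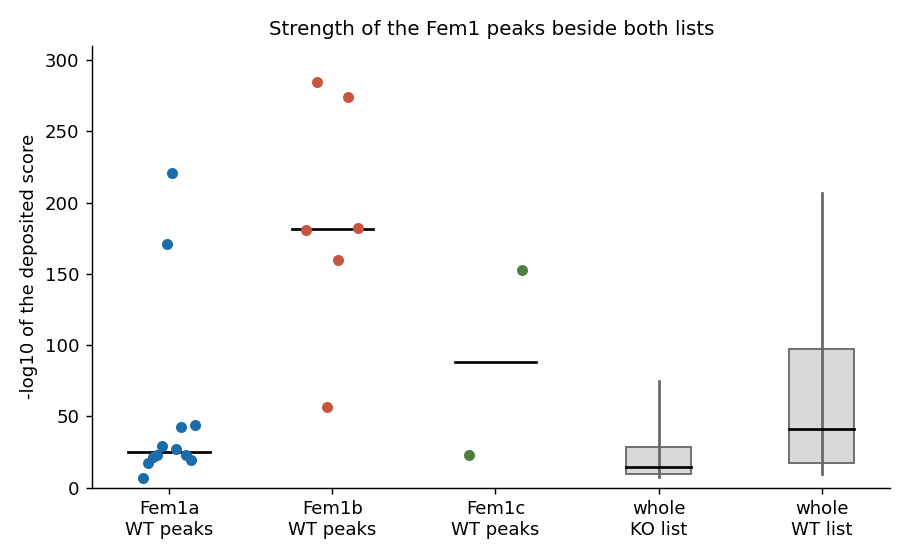
The -log10 of the deposited score (y axis) for each WT peak of Fem1a, Fem1b and Fem1c (points, with the median as a line), beside the whole KO and WT lists (box, quartiles; line, 10th to 90th percentile). Medians are 25.2, 181.5 and 88.0 for the genes and 14.5 and 41.0 for the KO and WT lists.

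Counting only the strongest WT peaks changed which paralog had most. Among the 3673 strongest, as many as the KO list holds, Fem1b had 5, Fem1a 2 and Fem1c 1. Fem1a passed Fem1b only when the strongest 9971 peaks were counted, 66.4% of the list, where it had 7 against 6. Of the 12 Fem1a peaks, 10 ranked below the strongest 3673.

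**Figure D3:**
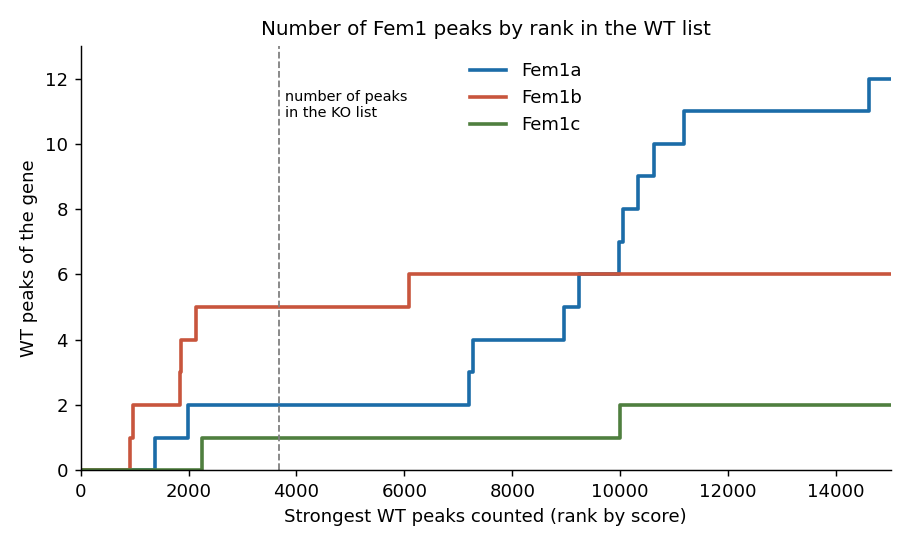
Number of WT peaks of each gene (y axis) among the strongest WT peaks, counted from the strongest to the weakest (x axis, rank by score). The dashed line marks 3673, the length of the KO list, where Fem1b has 5 peaks, Fem1a 2 and Fem1c 1, and the Fem1a line crosses above Fem1b at rank 9971.

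The comparison of KO with WT asks which m6A regions are still listed without Mettl14. The family had 0 KO peaks and 20 WT peaks, and no KO peak lay within the span of any of the 3 genes on either strand. This absence was already known when the genes were taken and is no result about them. Over all genes with a WT peak, 73.0% had no KO peak (5637 of 7717, Wilson 95% interval 72.0 to 74.0), and 87.1% of all WT peaks had no overlapping KO peak. A WT peak is called retained where a KO peak shares at least 1 exonic base with it on the same strand. This makes 12.9% of all WT peaks retained (interval 12.4 to 13.4). Intervals over peaks, here and below, treat the peaks of a gene as independent, which they are not, and may be too narrow.

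Having no KO peak was common for genes with few WT peaks and rarer for genes with many. A gene whose KO peaks overlap none of its WT peaks counts here as having a KO peak. In the class of Fem1c, with 2 WT peaks, 70.4% of 2001 genes had no KO peak (Wilson 95% interval 68.3 to 72.3). In the class of Fem1b, with 6 to 9 WT peaks, it was 37.6% of 165 genes (30.5 to 45.2). Of the 18 genes with 10 or more, 3 had no KO peak, which is 16.7% (5.84 to 39.2), namely Fem1a, Pdzd2 and 2900026A02Rik. These intervals cover counting error over genes only. Fem1a is itself 1 of the 3 and was chosen with its count known. Its class rests on the unjoined count of 12, and joined across gaps of up to 100 bases it had 6 WT peaks. Shares by class were not recomputed for joined peaks.

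**Figure D4:**
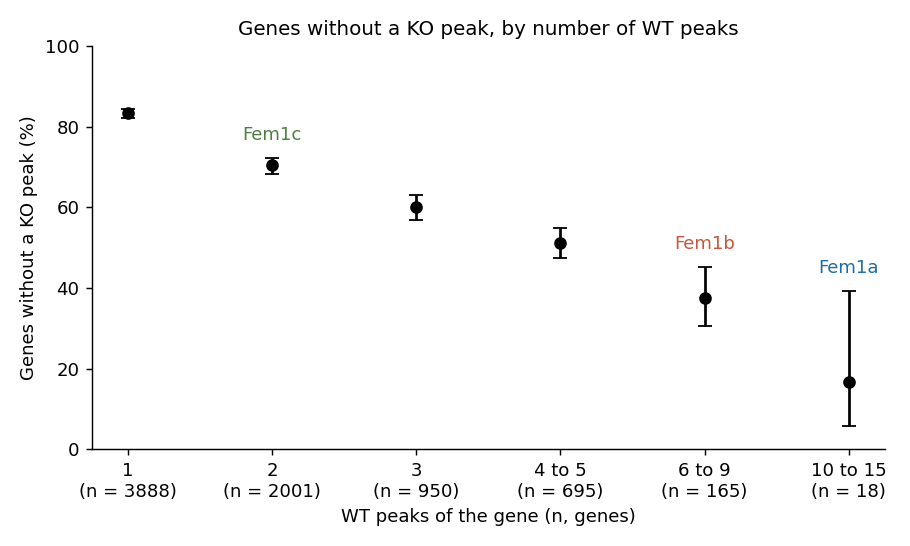
Share of genes without any KO peak (y axis, percent, with Wilson 95% intervals) by the number of WT peaks of the gene (x axis, with the number of genes). The share is 83.3% for genes with 1 WT peak and 16.7% for genes with 10 or more. The class of each Fem1 gene, by its count without joining across gaps, is named above its point.

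Strength gave a similar background. In the strongest 20% of WT peaks, which held 8 of the 20 family peaks, 31.0% of peaks were retained (29.4 to 32.7). Retention was 9.49% in the third class, with 4 family peaks, 6.43% in the fourth, with 7, and 3.53% in the weakest, with 1. None of the 20 was retained.

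Fem1a stood high among genes for the number of its WT peaks but lower for their length. In all, 7 genes had more WT peaks and 82 had a longer summed WT peak length. Of these 7, 6 had a KO peak, among them Hivep3 with 5 KO peaks and 13 WT peaks. Of the 7717 genes with a WT peak, 100 had more WT peaks than Fem1b and 1828 more than Fem1c. Fem1a had more WT peaks than 99.9% of these genes, Fem1b more than 97.6% and Fem1c more than 50.4%.

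Fem1a combined many WT peaks with a short span. It had 1.76 WT peaks per kb of gene span, more than 99.3% of the 409 genes with at least 5 WT peaks, whose median was 0.0946 per kb. Joined across gaps of up to 100 bases it had 0.88 per kb, more than 95.2% of the 314 genes that then had at least 5 peaks. Without joining, Fem1b, at 0.303 per kb, was denser than 79.2% of the 409 genes. Of 162 further genes with at least 5 WT peaks and none in the KO list, those nearest to Fem1a in peaks per kb were Usp27x, a deubiquitinase gene on the X chromosome, with 1.85, Sowaha with 1.66, Ajm1 with 1.49, the protocadherin gene Pcdhb20 with 1.47 and the zinc transporter gene Slc39a7 with 1.46. They had 5 to 7 WT peaks each, fewer than Fem1a, on spans of 3240 to 4684 bases. Density here is per base of genomic span, introns included.

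Among the genes next to the family, only Ticam1 had a peak in either list. The gene after Fem1a, Ticam1, which encodes the Toll-like receptor adaptor TRIF, starts 5853 bases away and had no KO peak and 3 WT peaks over 212 bases. The microRNA gene Mir7b, 13694 bases before Fem1a, had no peak in either list. Ticam2, a relative of Ticam1, lies 32259 bases upstream of the minus-strand gene Fem1c and had no peak in either list. The same held for Cln6 and Gm7653 beside Fem1b and Gm4107 beside Fem1c. A gene named as a close relative of Fem1a, Fem1al on chromosome 11 (29822395 to 29825668), had no KO and no WT peak in its span. No source used here says how reads that match both genes were assigned, so Fem1a peaks are uncertain in that respect.

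The other genes of the cullin-2 ligase were read from a list of 30 genes, the family included, all found in the RefSeq gene table. Of these, 19 had a WT peak and 14 of the 19 had no KO peak, which is 73.7%, near the 73.0% of all genes. Without the family it was 11 of 16 (68.8%). The median over the 19 genes was 1 WT peak per gene, and outside the family no gene had more than 2.

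Among the other 10 substrate receptors, 3 had a WT peak, none of them with a KO peak. Having no KO peak was the case for 73.0% of all genes with a WT peak. Vhl, the receptor for hypoxia-inducible factors, had 1 of 241 bases (score 1e-44). Appbp2 and Zer1, receptors for other terminal degrons, had 1 each, of 90 and 61 bases, with weak scores of 2e-06 and 6e-10. Zyg11b, which reads glycine at the amino terminus, had 1 KO peak of 211 bases (chromosome 4, 108230777 to 108230987, score 5e-64) and no WT peak. The remaining 6, Klhdc1, Klhdc2, Klhdc3, Klhdc10, Zyg11a and Lrr1, had none in either list. The 13 receptors together held 1 KO peak and 23 WT peaks, of which 20 were in the FEM1 genes.

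Of the 12 genes of the ligase core and its activation, 2 had a KO peak and 8 a WT peak. Of these 8, 6 had no KO peak (75%), near the 73.0% of all genes with a WT peak. Ube2m, the enzyme that carries NEDD8 to cullins, had 1 KO peak of 178 bases and 2 WT peaks, of which the one from 13037623 to 13037770 on chromosome 7 lay fully inside the KO peak. Arih1, a ligase that works with neddylated cullins, had a KO peak of 210 bases inside its WT peak of 390 bases. Cul2, the scaffold, had no KO peak and 1 WT peak of 150 bases with a weak score (3.4e-06). Rbx1 and Nedd8 also had no KO peak and 1 WT peak each, of 60 bases with a score of 2e-31 in Rbx1 and of 233 bases with a strong score of 1e-158 in Nedd8. The ubiquitin-conjugating enzyme gene Cdc34 and the exchange factor genes Cand1 and Cand2 had no KO peak and 2 WT peaks each. The elongin genes Elob and Eloc had none in either list, nor had Ube2r2 and Dcun1d1.

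All 5 genes listed as known substrates or inhibitors of FEM1 proteins had a WT peak, and 3 had a KO peak. The other 2 had no KO peak (40%), against 73.0% of all genes with a WT peak. With only 5 genes this difference was not tested. Bex2 and Bex3, which encode small neuronal proteins that hold back FEM1B, had 1 WT peak each, and both were retained. Both lie in the strongest 20% of WT peaks, of which 31.0% were retained. In Bex2 the KO peak of 466 bases (score 2e-64) lay inside the WT peak of 553 bases, whose score is listed as 0, too small to be held. In Bex3 the KO peak of 352 bases lay inside the WT peak of 498 bases (KO score 1.3e-98, WT score 1e-291). Fnip1 had 1 KO peak of 121 bases, 12070 bases away from the nearer of its 2 WT peaks, neither of which was retained. Slbp, the histone mRNA binding protein gene, and Gli1 had no KO peak and 1 WT peak each, of 299 and 60 bases.

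**Figure D5:**
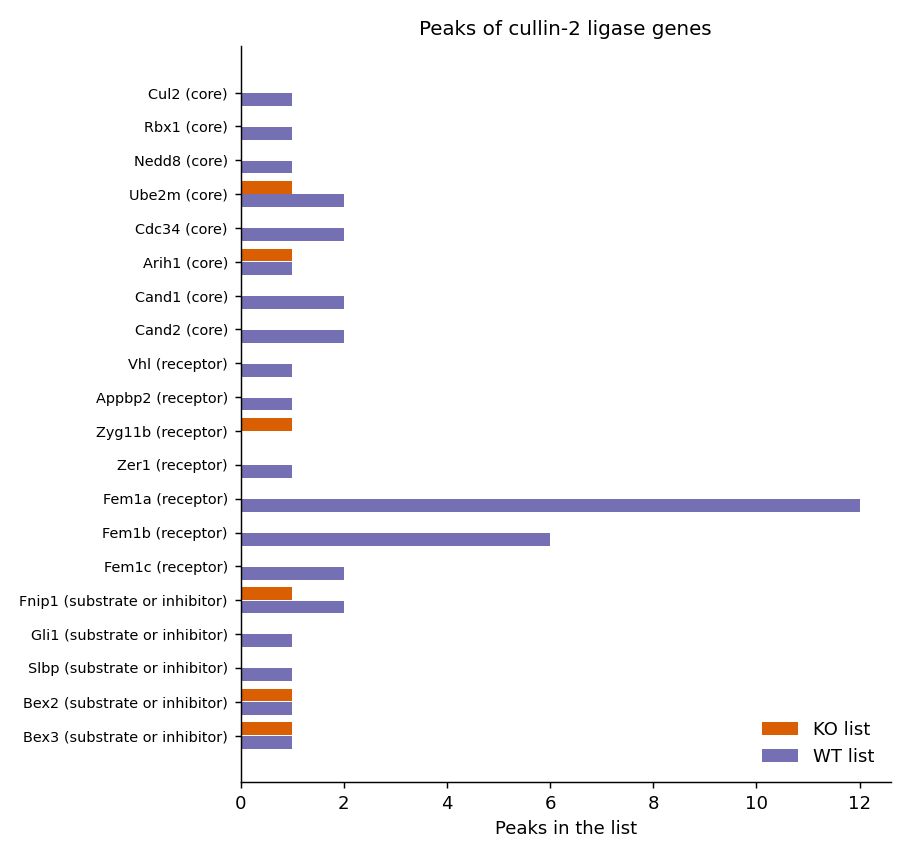
Number of peaks in the KO list (upper bar) and the WT list (lower bar) for the 20 listed cullin-2 ligase genes with a peak in either list, with their role. KO bars appear for Ube2m, Arih1, Zyg11b, Fnip1, Bex2 and Bex3, and the WT bars of Fem1a and Fem1b are the longest.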

How the data were processed

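The authors deposited 2 consensus peak lists, KO and WT. Per the file headers, each peak has a position, strand, gene symbol, score and a count of exonic blocks, and the score was read as a p-value or q-value from its range. Per the submitters' processing notes, STAR and GRCm38 were used. No source used here names the peak caller, its thresholds or the way libraries were pooled.

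Starts were counted from 1. Entries of a list that shared an exonic base on the same strand were merged (3733 KO entries to 3673 peaks, 15091 WT entries to 15009), and merging changed no Fem1 peak. Gene spans were taken from RefSeq (GRCm38.p6), where 99.6% of gene symbols were found. Ranks, -log10 scores and overlaps were computed with Python 3.11.15 and pandas 2.3.3, and Wilson 95% intervals with scipy 1.17.1. The overlap and merging steps were tested on simulated intervals. Named genes were the members, their neighbours, listed cullin-2 ligase genes with a peak and the 5 genes nearest to Fem1a in WT peaks per kb. Others (the listed genes without a peak, Fem1al, Pdzd2, 2900026A02Rik and Hivep3) were named after their values were seen. The members and lists were chosen with earlier results of these data known. No comparison carries a test.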

Additional observations from a re-analysis of the deposited data

How the results depend on the processing

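Of 68 recomputed values, 49 stayed within 1.5 times the reported count or length or inside the 95% interval of the reported share (72.0 to 74.0% of genes without a KO peak, 12.4 to 13.4% of WT peaks retained), and 19 did not. The family had 0 KO peaks and 0 retained WT peaks under every alternative run. With no KO peak in the span of any member, none of these runs could give another value. They account for 7 and 8 of the 49 values that stayed. Fem1a had 6 WT peaks when joined across gaps of up to 100 bases. With the stronger 50% of each list, Fem1a had 4 WT peaks over 1170 bases, Fem1c had 1, 76.7% of genes with a WT peak had no KO peak, 8 of 11 ligase genes with a WT peak had no KO peak, and 14.2% of WT peaks were retained. With only the 3673 strongest WT peaks, the values in the same order were 2 peaks over 958 bases, 1, 54.1%, 5 of 7 and 28.6%. With the KO median score as a limit on both lists, 81.3% of genes with a WT peak had no KO peak and 10.1% of WT peaks were retained. With at least 50% of both peaks shared, 6.26% were retained, against 12.9% with at least 1 shared base. Fem1a had 0.88 WT peaks per kb when joined across 100 bases, 0.587 with the stronger 50% and 0.293 with the 3673 strongest, against 1.76 in the report, in settings chosen after seeing the data.

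No paired analysis was possible because each list pools its libraries, and leaving out a library was not run for that reason. Motif counts in peaks were not run, since no genome sequence was used here.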
